A study of Mus musculus with 9 samples.

Results

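The genes described here encode the machinery of the lysosome: 10 cathepsins and other proteases, 9 glycosidases, 5 lipid hydrolases or their activators, 8 membrane or sterol-transfer proteins, 14 subunits of the vacuolar proton pump (V-ATPase) and 3 transcription factors. They were chosen by symbol, as the entries of the count table that appear in a list of 49 lysosomal genes, and all 49 were found among 53353 entries. The list was chosen with earlier results of these data known. Shares of its genes beside those of all genes are therefore a description and not a test. Of these, 48 passed the filter on low counts and were tested among 15675 genes. The remaining gene, Atp6v0c, lies wholly inside another entry, Gm43796, and was listed at 0 in every library, so no level is given for it.

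The study sequenced RNA of dental papilla cells, the mesenchyme of the developing tooth that gives rise to pulp and odontoblasts, from C57BL/6 mice in 3 groups of 3 libraries. Primary libraries are labelled as primary dental papilla cells, with no culture step in the sample labels, although the design text calls 1 group DPC P2. Monolayer libraries came from such cells grown on plates in EpiCM medium with 2% fetal bovine serum and 1% growth supplement, for 8 days by the sample label and 14 days by the growth protocol. Sphere libraries came from cells of passage 2 seeded on ultra low attachment plates in basal EpiCM with methylcellulose and kept for 8 days. A passage number is given in the sample information for spheres only. Culture format, medium and possibly time and passage therefore changed together and cannot be told apart. The ages of the mice, and whether libraries of 1 group came from separate animals or cultures, are not stated, so a p-value here rests on the differences among libraries of 1 group, and those may be technical.

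Lysosomes are acidic organelles in which hydrolases break down proteins, glycans and lipids delivered by endocytosis and autophagy. The V-ATPase acidifies them: its cytosolic V1 sector hydrolyses ATP and its membrane V0 sector carries the protons across. TFEB, TFE3 and MITF are related basic helix-loop-helix transcription factors that bind E-box sequences in promoters of many lysosomal genes. In skeletal and dental tissue, secreted cathepsins and the proton pump are best known from bone-resorbing osteoclasts, and lysosomal enzymes also act in matrix turnover by mesenchymal cells.

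Promoter windows from 250 bases before to 50 bases after the annotated start were present for 40 of the 49 genes in the RefSeq sequences of build GRCm38.p6. The motif TCACGTG, read on both strands, was present in 11 of these 40 genes, or 27.5%, against 4.29% of all 27025 genes with a window. The 8-base palindrome TCACGTGA, which contains that motif on both strands, was present in 6 of the 40, or 15%, against 1.12% of all genes. The stretches below are shown because these genes hold the palindrome or, for Lamp1, the most copies. They are written 5′ to 3′ on the strand of the gene, and capitals mark the motif.
Ctsa, chr2:164833740-164833804, + strand: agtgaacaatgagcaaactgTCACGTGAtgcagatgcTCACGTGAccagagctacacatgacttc
Gla, chrX:134601173-134601253, - strand: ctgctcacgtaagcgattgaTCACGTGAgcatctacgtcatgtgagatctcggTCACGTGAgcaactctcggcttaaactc
Mcoln1, chr8:3500427-3500500, + strand: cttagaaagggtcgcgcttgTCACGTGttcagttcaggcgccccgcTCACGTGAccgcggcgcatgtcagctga
Atp6v0d1, chr8:105566041-105566088, - strand: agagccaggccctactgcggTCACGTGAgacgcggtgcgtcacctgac
Atp6v1a, chr16:44139364-44139411, - strand: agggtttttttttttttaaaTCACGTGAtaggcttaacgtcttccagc
Ctsd, chr7:142387899-142388077, - strand: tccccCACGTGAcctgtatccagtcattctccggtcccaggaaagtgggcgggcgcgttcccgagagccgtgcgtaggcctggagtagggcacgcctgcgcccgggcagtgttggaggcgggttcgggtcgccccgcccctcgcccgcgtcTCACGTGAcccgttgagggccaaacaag
Lamp1, chr8:13159079-13159171, + strand: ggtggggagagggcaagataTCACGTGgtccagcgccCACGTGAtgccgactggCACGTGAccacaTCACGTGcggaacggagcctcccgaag

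Ctsa and Gla each hold 2 palindromes and Lamp1 holds 4 copies of the shorter motif. Atp6v0b, Gaa, Glb1 and Naglu hold the shorter motif only. A match describes letters in this window and is not evidence of binding.

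Total counts ran from 35957376 to 52047254 per library. Levels are given as CPM, library-scaled counts after TMM scaling, and changes as log2 values of an edgeR quasi-likelihood fit over all 9 libraries, with Benjamini-Hochberg adjustment over all genes and a threshold of 0.05. Scaling to total counts instead moved the median of all genes by 0.305 on the log2 scale in sphere against monolayer and by -0.296 in monolayer against primary, but only by 0.008 in sphere against primary. Of 12 dental papilla mesenchyme markers, all were detected in every group, and 9 were lower and 3 higher in spheres than in primary cells. Of all tested genes, 40.6% were lower and 38.9% higher there. The 6 odontoblast markers summed to 21600 to 22300 CPM in spheres, 133 to 143 CPM in monolayers and 237 to 238 CPM in primary cells. Most of the sphere sum was Dmp1, at 18360 CPM, while Dspp was at 94.1 CPM there. Most of the other sums was Sp7, at 129 CPM in monolayers and 207 CPM in primary cells. All 6 markers rose in spheres against each of the other groups. The 6 epithelial markers summed to 180 to 186 CPM in primary cells, 0.649 to 0.975 CPM in monolayers and 52.2 to 56.5 CPM in spheres. Most of the sphere sum was Epcam, which rose from 2.88 CPM in primary cells to 42.9 CPM in spheres. The other 5 markers fell in that comparison, among them Krt14 from 113 to 7.25 CPM. The part of these cell types in the results was not tested. In bulk RNA, fewer cells of a type and less RNA per cell cannot be told apart.

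Lysosomal transcripts were higher in both cultures than in primary cells, and higher still in spheres for most genes. Together the 49 genes took 1.188% to 1.192% of all counts in primary libraries, 1.801% to 1.826% in monolayers and 2.703% to 2.735% in spheres. A share of all counts is itself a scaling to total counts. On the TMM scale the same 49 genes summed to 11144 ± 22.1 CPM (SD, n = 3) in primary cells, 20894 ± 173 in monolayers and 25341 ± 126 in spheres, a smaller step between the cultures. Ctsb, Psap and Gpnmb alone made up 37.09% to 45.3% of those counts. In sphere against primary, 44 of 48 tested genes rose and 3 fell, where 38.9% of all tested genes rose and 40.6% fell. Beyond 2-fold, 20 rose and 0 fell by edgeR's test against a fold change, against 11.3% and 16.5% of all genes. The median log2 change was 0.96 for the lysosomal genes and -0.02 for all genes. Scaling to total counts also gave 44 rises and 3 falls, where 39.3% and 40.2% of all genes rose and fell.

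In monolayer against primary, 44 of 48 rose and 3 fell, where 34.4% of all genes rose and 36.9% fell, and under scaling to total counts 39 rose and 5 fell, against 19.4% and 56.5% of all genes. Beyond 2-fold, 6 rose and 1 fell, against 6.18% and 7.82% of all genes. In sphere against monolayer, 32 rose and 12 fell, where 40.7% of all genes rose and 37.7% fell. Under scaling to total counts that split became 41 and 2, against 55% and 26.6% of all genes, so the direction of the small changes between the cultures rests on the scaling. Beyond 2-fold, 8 rose and 2 fell, against 12.6% and 15.4% of all genes. The 3 comparisons share libraries and are not independent of each other.

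The order sphere over monolayer over primary, with all 3 differences past the threshold, was found for 29 of the 48 genes, or 60.4%, against 8.91% of all genes, and 26 of them had that order under scaling to total counts too. Monolayer over sphere over primary was found for 9 genes, or 18.8%, against 3.88% of all genes: Ctsf, Ctsk, Glb1, Gaa, Psap, Npc1, Npc2, Atp6v0a1 and Atp6v0d1. None of the 9 had that order under scaling to total counts. Ctsl, Ctss and Tfe3 were highest in spheres and lowest in monolayers under both scalings.

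**Figure D1:**
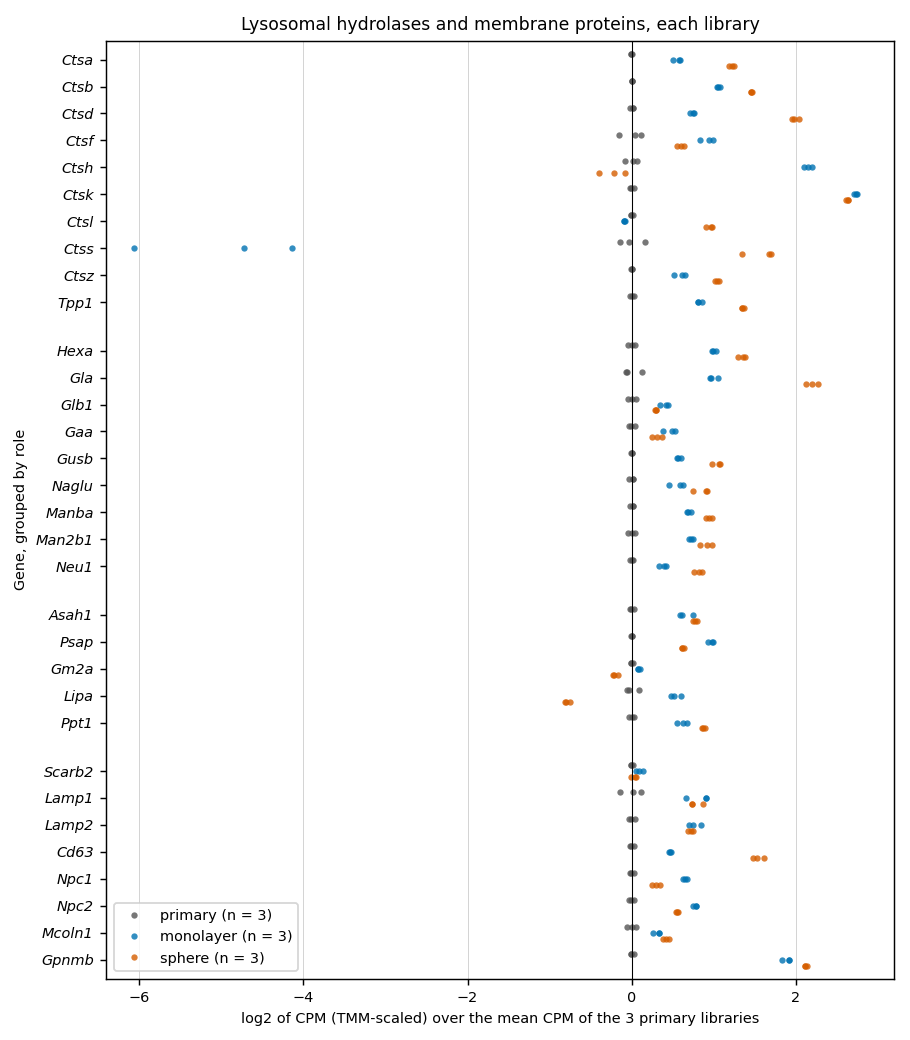
Level of each hydrolase and membrane protein gene in each of the 9 libraries, as log2 of TMM-scaled CPM over the mean of the 3 primary libraries (x axis), genes grouped by role (y axis). Points are libraries. Most monolayer and sphere points lie right of the primary points, Ctss in monolayers lies far left, and Lipa in spheres lies left of 0. Under scaling to total counts Gm2a and Scarb2 in monolayers fall below primary.

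Among the 3 transcription factors, Tfeb changed most in spheres. Tfeb, a main activator of lysosomal genes, was at 13.5, 12.7 and 13.2 CPM in primary libraries, 19.8, 18.1 and 19.2 CPM in monolayers and 53.4, 59.2 and 62.2 CPM in spheres. The 3 groups did not overlap, and spheres stood apart from both others. The log2 change was 1.62 ± 0.058 (SE) in sphere against monolayer (edgeR adjusted p = 3.41e-19) and 2.16 ± 0.060 in sphere against primary (adjusted p = 1.00e-21).

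Mitf, known for its part in melanocytes and osteoclasts as well as in lysosomal gene control, was at 15.8, 15.2 and 14.7 CPM in primary libraries, 24.5, 25.3 and 24.6 CPM in monolayers and 42.0, 37.6 and 37.2 CPM in spheres. Its levels rose from primary to monolayer to sphere with no overlap, with a log2 change of 0.65 ± 0.056 (SE) in sphere against monolayer (edgeR adjusted p = 5.32e-11). Tfe3, a close relative of Tfeb, was at 57.6, 57.5 and 59.1 CPM in primary libraries, 54.7, 52.9 and 55.7 CPM in monolayers and 65.0, 62.9 and 66.6 CPM in spheres. The groups did not overlap but lay close together. The sphere against monolayer log2 change of Tfe3 was 0.25 ± 0.040 (edgeR adjusted p = 2.94e-06). The drop from primary to monolayer, -0.09 ± 0.040 (adjusted p = 0.0429), lost its call without any 1 of 5 libraries, under relative log expression scaling, with DESeq2, with no filter on low counts and among non-overlapping genes. Under scaling to total counts the drop was larger, at -0.389 (edgeR adjusted p = 2.68e-09). The count ratio of Tfeb to Tfe3 does not depend on library scaling: it was 0.226 ± 0.0071 (SD, n = 3) in primary, 0.349 ± 0.0112 in monolayer and 0.899 ± 0.0673 in sphere libraries.

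**Figure D2:**
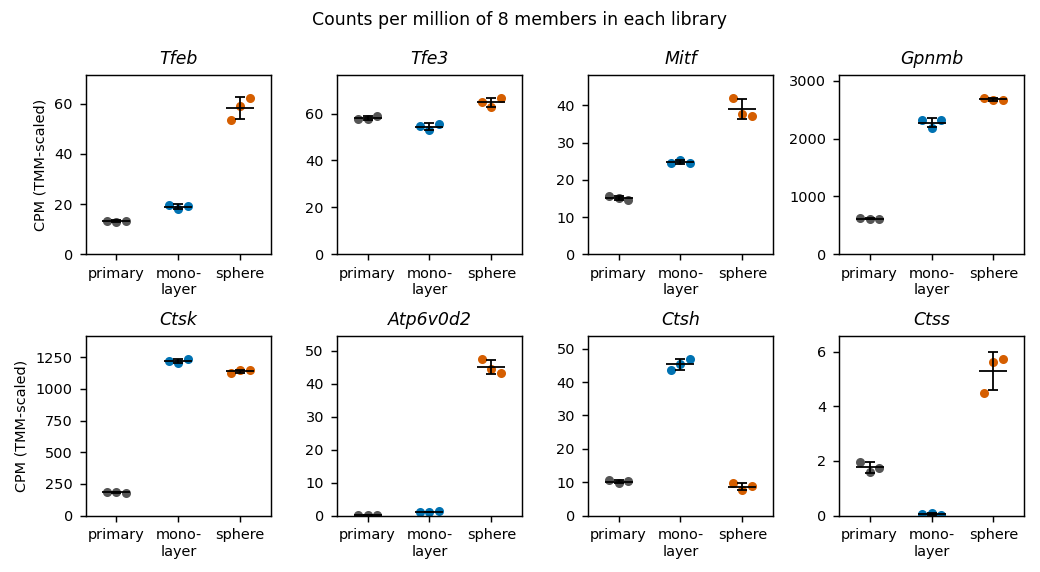
TMM-scaled CPM of 8 lysosomal genes in each library (y axes, linear from 0) by group (x axes). Points are libraries and bars are the mean and SD of 3 libraries. Tfeb and Atp6v0d2 are highest in spheres, Gpnmb and Ctsk are high in both cultures, Ctsh is high in monolayers and Ctss is near 0 in monolayers; for Ctsk the small gap between the cultures turns under scaling to total counts.

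The cathepsins and other proteases rose broadly in spheres against primary cells: 9 of 10 rose, 6 of them beyond 2-fold, and Ctsh fell. Of all tested genes, 38.9% rose in that comparison and 11.3% rose beyond 2-fold. Ctsk, the collagen-degrading cathepsin known from osteoclasts, was at 187, 183 and 182 CPM in primary libraries, 1224, 1206 and 1234 CPM in monolayers and 1125, 1146 and 1147 CPM in spheres. Both cultures were far above primary cells and close to each other. The log2 change was 2.73 ± 0.029 (SE) in monolayer against primary (edgeR adjusted p = 1.49e-29) and 2.63 ± 0.029 in sphere against primary (adjusted p = 1.85e-30). The small difference of -0.10 ± 0.027 between the cultures turned to 0.205 under scaling to total counts.

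Ctsd, an aspartyl protease with the palindrome in its promoter window, was at 209, 208 and 203 CPM in primary libraries, 349, 348 and 338 CPM in monolayers and 852, 813 and 801 CPM in spheres. The 3 groups did not overlap, and the log2 change was 1.25 ± 0.031 (SE) in sphere against monolayer (edgeR adjusted p = 8.32e-23) and 1.99 ± 0.032 in sphere against primary. Another entry, AC034099.1, covers 55.7% of the span of Ctsd, so its counts depend on how reads shared between the entries were treated. Ctsb, a cysteine protease of most cell types, was at 1823, 1824 and 1825 CPM in primary libraries, 3843, 3740 and 3782 CPM in monolayers and 4977, 5039 and 4997 CPM in spheres. Ctsb more than doubled from primary to monolayer cells (log2 change 1.05 ± 0.024, adjusted p = 8.35e-23) and rose again in spheres (0.40 ± 0.024, adjusted p = 3.10e-14).

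Ctsa, the protective protein that stabilises beta-galactosidase and neuraminidase, holds 2 palindromes and was at 299, 299 and 302 CPM in primary libraries, 451, 425 and 445 CPM in monolayers and 682, 702 and 711 CPM in spheres. The groups did not overlap, with a log2 change of 0.67 ± 0.031 (SE) in sphere against monolayer (edgeR adjusted p = 8.80e-17), and Neurl2 and Pltp cover 25.7% of its span.

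Ctsl, another broadly expressed cysteine cathepsin, was at 729, 715 and 718 CPM in primary libraries, 680, 677 and 673 CPM in monolayers and 1417, 1403 and 1354 CPM in spheres. Spheres were clearly above both other groups, and monolayers were slightly below primary cells. The log2 change of Ctsl was 1.04 ± 0.028 (SE) in sphere against monolayer (edgeR adjusted p = 4.58e-22) and -0.09 ± 0.028 in monolayer against primary (adjusted p = 0.00489), a call lost under relative log expression scaling (-0.054, adjusted p = 0.0921) and with DESeq2 (-0.053, adjusted p = 0.0725). Under scaling to total counts the change of Ctsl in monolayer against primary was larger, at -0.388 (edgeR adjusted p = 2.36e-12). Ctsf, a little studied cysteine cathepsin, was at 48.9, 42.6 and 51.4 CPM in primary libraries, 91.4, 84.5 and 94.7 CPM in monolayers and 69.8, 72.5 and 74.3 CPM in spheres. Its fall between the cultures (-0.32 ± 0.054) was -0.015 under scaling to total counts and no longer called.

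Ctsh, a cysteine cathepsin with aminopeptidase activity, was at 10.7, 9.67 and 10.3 CPM in primary libraries, 43.7, 45.3 and 46.8 CPM in monolayers and 9.64, 7.72 and 8.77 CPM in spheres. It was high in monolayers alone. The log2 change was -2.38 ± 0.069 (SE) in sphere against monolayer (edgeR adjusted p = 2.20e-21) and 2.15 ± 0.067 in monolayer against primary (adjusted p = 4.92e-20). In sphere against primary it was -0.24 ± 0.076 (adjusted p = 0.00655), which became -0.155 without sphere replicate 2 (adjusted p = 0.076).

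Ctss, a cathepsin known from antigen-presenting cells, had 94, 81 and 86 counts in primary libraries, 3, 4 and 1 counts in monolayers and 174, 289 and 311 counts in spheres. It was nearly absent from monolayers and low elsewhere. Over the summed counts the sphere level was 82.3 times that of monolayers, with a 95% interval of 41.6 to 191 that covers counting error only, and the primary level was 27.0 times that of monolayers, with an interval of 13.5 to 63.3. The fitted log2 change was 6.29 ± 0.28 (SE, edgeR adjusted p = 5.70e-17), a value that depends on the few monolayer counts. Summed over 13 macrophage markers, levels were 28.6 to 31.2 CPM in primary, 12.3 to 14.2 CPM in monolayer and 47.5 to 49.4 CPM in sphere libraries, with Fcgr1 at 0 in monolayers. Most of the monolayer sum came from Cd14, Csf1r and Lyz2, at 5.11, 3.87 and 3.08 CPM. Of 11 macrophage markers tested in sphere against monolayer, 9 rose and 2, Csf1r and Cd14, fell. In monolayer against primary 1 of the 11 rose and 9 fell. Of all tested genes, 40.7% rose and 37.7% fell in sphere against monolayer, and 34.4% and 36.9% in monolayer against primary. The part of macrophage RNA in the Ctss result was not tested.

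All 9 glycosidases rose in both cultures against primary cells, except that under scaling to total counts Neu1 in monolayers was not called (0.086, edgeR adjusted p = 0.0513). Of all tested genes, 38.9% rose in sphere against primary and 34.4% in monolayer against primary. Gla, which removes terminal galactose from glycolipids and is deficient in Fabry disease, was at 20.8, 18.4 and 18.3 CPM in primary libraries, 37.5, 39.8 and 37.2 CPM in monolayers and 92.3, 83.8 and 88.3 CPM in spheres. The groups did not overlap, and Gla was the 1 glycosidase past 2-fold in sphere against monolayer, at a log2 change of 1.21 ± 0.050 (SE, edgeR adjusted p = 7.43e-18). Hexa, a subunit of beta-hexosaminidase, rose from 319 ± 9.12 CPM (SD, n = 3) in primary cells to 636 ± 10.2 in monolayers and 811 ± 24.5 in spheres. Gusb, Naglu, Manba, Man2b1 and Neu1, which cleave other sugars from glycans, rose by log2 changes of 0.82 to 1.05 in sphere against primary. Glb1, the beta-galactosidase, and Gaa, which degrades glycogen, were lower in spheres than in monolayers by -0.11 ± 0.036 and -0.16 ± 0.037, but higher under scaling to total counts (0.196 and 0.142).

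The lipid hydrolases and activators diverged. Lipa, the acid lipase that hydrolyses cholesteryl esters and triglycerides, was at 66.5, 72.1 and 65.3 CPM in primary libraries, 97.5, 103 and 94.9 CPM in monolayers and 38.8, 40.3 and 38.9 CPM in spheres. Spheres were lowest and monolayers highest, with no overlap. The log2 change of Lipa was -1.32 ± 0.044 (SE) in sphere against monolayer (edgeR adjusted p = 6.75e-20) and -0.79 ± 0.045 in sphere against primary (adjusted p = 8.29e-15).

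Psap, the precursor of the saposins that present sphingolipids to their hydrolases, was at 1708, 1688 and 1706 CPM in primary libraries, 3339, 3243 and 3373 CPM in monolayers and 2645, 2597 and 2605 CPM in spheres. Both cultures were above primary cells. The fall from monolayer to sphere (-0.34 ± 0.025) was -0.038 under scaling to total counts and not called. Gm2a, the activator of ganglioside breakdown, was at 45.5, 46.0 and 45.4 CPM in primary libraries, 48.3, 48.8 and 48.0 CPM in monolayers and 39.1, 39.4 and 40.8 CPM in spheres. Spheres were lowest, by -0.20 ± 0.042 (SE) against primary cells (edgeR adjusted p = 1.16e-04), while the difference from monolayers turned to 0.022 under scaling to total counts. Asah1, the acid ceramidase, and Ppt1, which removes fatty acids from proteins, rose in both cultures and were highest in spheres, at 483 ± 8.60 and 95.8 ± 1.07 CPM (SD, n = 3).

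Of the 8 membrane and sterol-transfer genes, 7 rose in sphere against primary, where 38.9% of all genes rose. Scarb2, the receptor that carries beta-glucocerebrosidase, was not called (0.03 ± 0.033, edgeR adjusted p = 0.423). Gpnmb, a glycoprotein known from melanocytes, osteoclasts, macrophages and osteoblasts, was at 627, 613 and 611 CPM in primary libraries, 2323, 2186 and 2319 CPM in monolayers and 2699, 2663 and 2665 CPM in spheres. Both cultures were several-fold above primary cells. The log2 change of Gpnmb was 1.88 ± 0.029 (SE) in monolayer against primary (edgeR adjusted p = 1.51e-26) and 2.12 ± 0.029 in sphere against primary (adjusted p = 1.77e-28).

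Gpnmb, Ctsk, Mitf and Atp6v0d2 are also known from osteoclasts, so osteoclast markers are given beside them. Those 9 markers summed to 85.3 to 87.1 CPM in primary, 191 to 207 CPM in monolayer and 137 to 138 CPM in sphere libraries, nearly all of it from Itgb3 and Nfatc1, which other cells express too. Of the 5 markers tested, 2 rose, 2 fell and 1 was not called in sphere against monolayer, and 3 rose and 1 fell in sphere against primary. In monolayer against primary 4 rose and 0 fell, or 1 and 0 under scaling to total counts. Of all tested genes, 40.7% rose and 37.7% fell in sphere against monolayer, and 38.9% and 40.6% in sphere against primary. In monolayer against primary 34.4% rose and 36.9% fell, or 19.4% and 56.5% under scaling to total counts. Tnfrsf11a, the RANK receptor, had 24 counts in primary, 9 in monolayer and 47 in sphere libraries and rose in sphere against monolayer (log2 change 2.12 ± 0.61, edgeR adjusted p = 0.00282). Oscar, an osteoclast receptor, rose in sphere against primary (0.97 ± 0.40, adjusted p = 0.0317), and Mmp9, a matrix protease, fell in sphere against monolayer (-2.40 ± 0.27, adjusted p = 1.17e-08). Dcstamp, needed for osteoclast fusion, had 0 counts in primary, 0 in monolayer and 4 in sphere libraries, and Calcr, the calcitonin receptor, had 6, 9 and 6. The part of osteoclast RNA in these results was not tested. Acp5 lies wholly inside another entry and gives no value. The melanocyte markers summed to at most 1.52 CPM in any library.

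Lamp1 and Lamp2, the most abundant glycoproteins of the lysosomal membrane, were compared as a pair. Lamp1 was at 284, 319 and 340 CPM in primary libraries, 586, 590 and 498 CPM in monolayers and 572, 523 and 523 CPM in spheres. Lamp2 was at 462, 480 and 455 CPM in primary libraries, 780, 839 and 754 CPM in monolayers and 768, 780 and 751 CPM in spheres. For both, the cultures lay above primary cells and overlapped each other. The log2 changes in sphere against primary were 0.78 ± 0.091 (SE) for Lamp1 and 0.72 ± 0.035 for Lamp2 (edgeR adjusted p = 9.66e-05 and 2.91e-16), and Grtp1 covers 20.5% of the span of Lamp1. Cd63, a tetraspanin of late endosomes and exosomes, passed 2-fold in sphere against monolayer, at 1625 ± 74.8 CPM (SD, n = 3) against 774 ± 6.33. Mcoln1, a calcium channel of the lysosome with a palindrome in its promoter window, rose less, from 74.1 ± 2.71 CPM in primary cells to 98.9 ± 2.60 in spheres.

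Npc1 and Npc2, which hand cholesterol out of the lysosome, were higher in both cultures than in primary cells. Npc1 was at 107, 108 and 110 CPM in primary libraries, 170, 172 and 167 CPM in monolayers and 129, 132 and 137 CPM in spheres. Its fall from monolayer to sphere of -0.35 ± 0.034 (SE, edgeR adjusted p = 5.30e-10) was -0.049 under scaling to total counts and not called.

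All 6 listed genes of the V-ATPase V1 sector rose in sphere against monolayer, with a median log2 change of 0.63. Of 5 tested V0 genes 2 rose, 2 fell and 1 was not called, with a median of -0.02. Of all tested genes, 40.7% rose and 37.7% fell, shares near those of the V0 genes, with a median of 0.04. Both accessory genes rose. Under scaling to total counts the 2 V0 genes that fell, Atp6v0a1 and Atp6v0d1, had log2 changes of 0.041 and 0.113. Count ratios within a library need no scaling. For each library, the summed counts of the 6 V1 genes were divided by those of the 5 tested V0 genes. These sums lack Atp6v0c, listed at 0, and all subunits outside the listed genes, so they do not stand for the whole sectors. The ratio came to 1.40 ± 0.0113 (SD, n = 3) in primary, 1.55 ± 0.0519 in monolayer and 2.44 ± 0.0356 in sphere libraries.

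Single pairs of V1 and V0 genes did not all move that way. Of 30 such pairs, the V1 to V0 count ratio was higher in every sphere library than in any monolayer library for 21, lower for 7 and overlapping for 2. All 6 pairs with each of Atp6v0a1, Atp6v0a2 and Atp6v0d1 were higher in spheres, and all 6 pairs with Atp6v0d2 were lower. With Atp6v0b, 3 pairs were higher, 1 was lower and 2 overlapped. These ratios were chosen after the values were seen and are a description without a test.

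Atp6v1a, the catalytic subunit, was at 122, 119 and 121 CPM in primary libraries, 258, 267 and 249 CPM in monolayers and 445, 435 and 432 CPM in spheres. The groups did not overlap, with log2 changes of 1.10 ± 0.033 (SE) in monolayer against primary (edgeR adjusted p = 2.19e-20) and 0.76 ± 0.032 in sphere against monolayer (adjusted p = 1.22e-17). Atp6v1b2, the nucleotide-binding partner of Atp6v1a, and Atp6v1c1, which joins the sectors, reached 365 ± 7.53 and 118 ± 0.607 CPM (SD, n = 3) in spheres, from 98.7 ± 2.00 and 40.3 ± 0.490 in primary cells. Atp6v1d, Atp6v1e1 and Atp6v1h, subunits of the stalks of the pump, rose by log2 changes of 0.96 to 1.23 in sphere against primary.

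Atp6ap2, an accessory subunit also called the prorenin receptor, was at 99.8, 102 and 101 CPM in primary libraries, 123, 125 and 119 CPM in monolayers and 369, 383 and 365 CPM in spheres. Spheres were above both other groups, with log2 changes of 1.61 ± 0.033 (SE) against monolayers (edgeR adjusted p = 1.35e-24) and 1.88 ± 0.034 against primary cells (adjusted p = 5.98e-26). The rise from primary to monolayer (0.27 ± 0.034) was -0.022 under scaling to total counts and not called. Atp6ap1, the other accessory subunit, rose to 443 ± 9.17 CPM (SD, n = 3) in spheres from 306 ± 3.39 in monolayers.

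**Figure D3:**
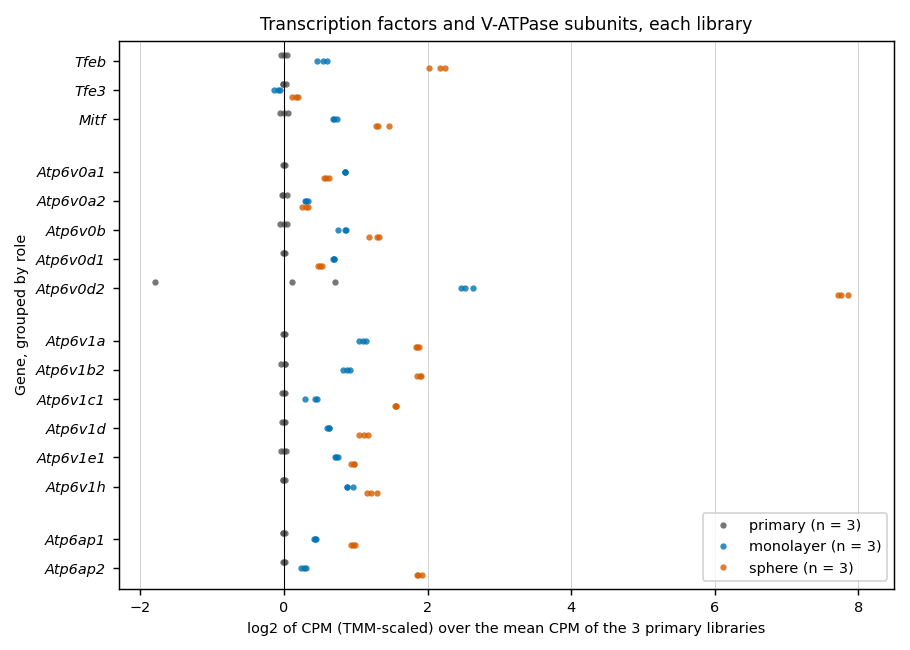
Level of each tested transcription factor and V-ATPase gene in each of the 9 libraries, as log2 of TMM-scaled CPM over the mean of the 3 primary libraries (x axis), grouped by role (y axis). Points are libraries. The V1 and accessory genes are highest in spheres, whereas Atp6v0a1 and Atp6v0d1 are slightly lower in spheres than in monolayers, which turns under scaling to total counts. Atp6v0d2 lies farthest right.

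The paralogs of the V0 sector differed in pattern. Atp6v0d2, the isoform of subunit d known from osteoclasts, had 16, 3 and 11 counts in primary libraries, 51, 47 and 48 in monolayers and 1842, 2279 and 2343 in spheres. Those counts correspond to 0.205 ± 0.139 CPM (SD, n = 3), 1.19 ± 0.0709 and 45.0 ± 2.19. Spheres were far above both other groups, with log2 changes of 5.24 ± 0.11 (SE) against monolayers (edgeR adjusted p = 2.54e-24) and 7.78 ± 0.14 against primary cells (adjusted p = 1.24e-25).

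Atp6v0d1, the isoform found in most tissues, holds the palindrome in its promoter window. It was at 113, 113 and 114 CPM in primary libraries, 183, 182 and 184 CPM in monolayers and 157, 163 and 160 CPM in spheres. It varied little beside Atp6v0d2. The count ratio of Atp6v0d2 to Atp6v0d1 was 0.0018 ± 0.00123 (SD, n = 3) in primary, 0.0065 ± 0.000369 in monolayer and 0.281 ± 0.0172 in sphere libraries. Of the a subunits, which line the proton path, Atp6v0a1 was at 108, 105 and 106 CPM in primary libraries, 191, 192 and 192 CPM in monolayers and 164, 159 and 156 CPM in spheres. Atp6v0a2 was at 65.2, 68.1 and 65.4 CPM in primary libraries, 82.4, 81.3 and 83.8 CPM in monolayers and 82.3, 83.2 and 78.7 CPM in spheres. Both a subunits were higher in the cultures than in primary cells, although under scaling to total counts the monolayer change of Atp6v0a2 was 0.019 and not called, and the cultures overlapped for Atp6v0a2 alone of the pair. Atp6v0b, a subunit of the proton-carrying ring, rose to 107 ± 5.38 CPM (SD, n = 3) in spheres, with 55.5% of its span covered by Gm12841.

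**Figure D4:**
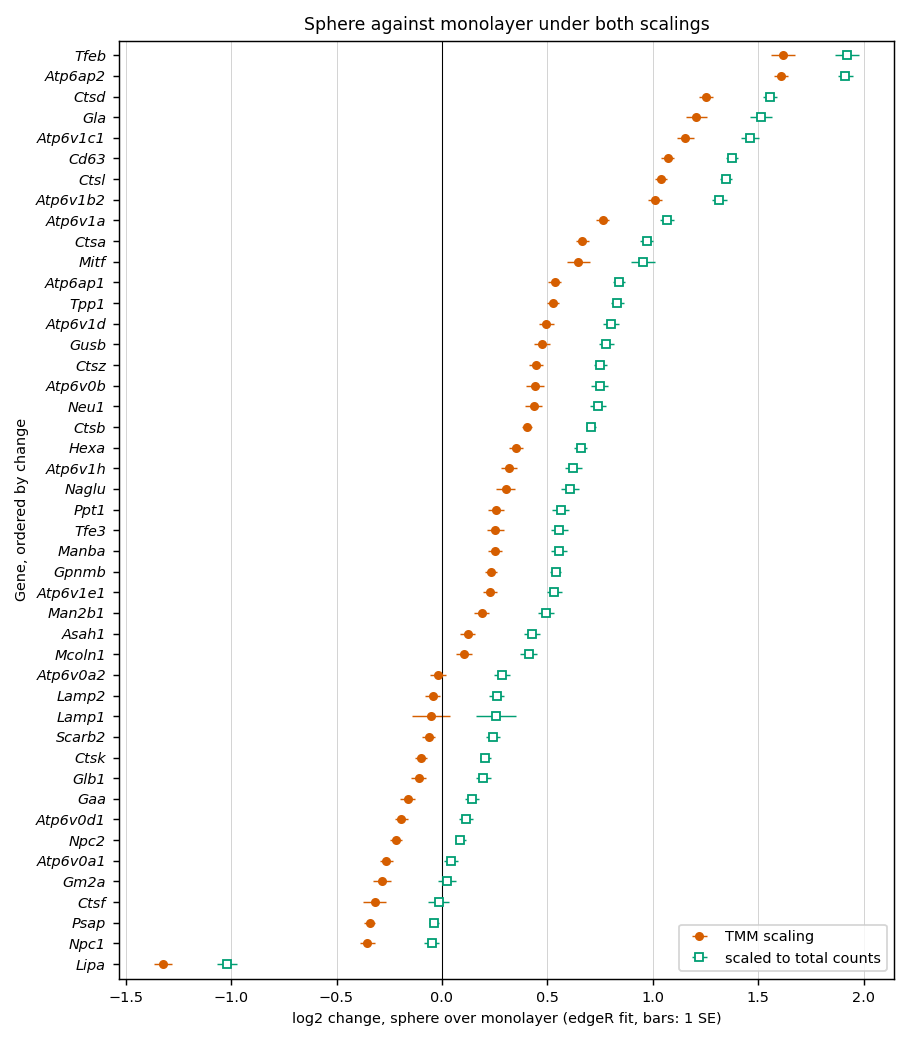
Log2 change in sphere against monolayer (x axis, bars 1 SE of the edgeR fit) for 45 lysosomal genes (y axis, ordered by change), under TMM scaling (filled) and under scaling to total counts (open). Ctss, Atp6v0d2 and Ctsh lie beyond the axis and are left out. Open points lie right of filled ones by about the 0.305 shift of all genes, and genes such as Ctsk, Glb1, Gaa and Npc2 change sign.

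The 11 genes with the promoter motif and the 28 tested genes with a window but no motif are given side by side, with no test of the difference. In sphere against primary, 11 of 11 genes with the motif rose with a median log2 change of 0.86, and 25 of 28 without it rose with a median of 0.96. Of all tested genes, 38.9% rose there. In sphere against monolayer, 7 of 11 and 19 of 28 rose, with medians of 0.30 and 0.26, beside 40.7% of all genes.

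Other genes of the pathway were counted from lists that hold none of the genes above. Their counts stand beside 40.7% of all genes rising and 37.7% falling in sphere against monolayer, and 55% and 26.6% under scaling to total counts. Of 23 other lysosomal hydrolases tested, 15 rose and 5 fell in sphere against primary, where 38.9% and 40.6% of all genes did, and 10 rose and 11 fell in sphere against monolayer, or 16 and 5 under scaling to total counts. Lgmn, the asparaginyl endopeptidase that processes cathepsins, rose from 160, 160 and 160 CPM in monolayers to 422, 412 and 413 CPM in spheres. Ctsc, a cathepsin that activates granule proteases, rose by 1.70 ± 0.044 (SE) on the log2 scale in the same comparison (edgeR adjusted p = 2.22e-22). Arsa, the arylsulfatase that degrades sulfatide, fell by 1.38 ± 0.041 (SE) on the log2 scale in the same comparison (edgeR adjusted p = 4.41e-21). Of 9 other V-ATPase subunits tested, 4 rose and 4 fell in sphere against monolayer, or 4 and 3 under scaling to total counts. Atp6v1g1, of the peripheral stalk, had the smallest adjusted p, at a log2 change of 2.32 ± 0.035 (adjusted p = 1.12e-27). Atp6v0e2 rose too (3.02 ± 0.16, edgeR adjusted p = 3.33e-15). Atp6v0e (-0.55 ± 0.034, edgeR adjusted p = 8.38e-14) and Tcirg1 (-0.62 ± 0.040, edgeR adjusted p = 1.20e-13) fell. Tcirg1 also fell in sphere against primary (-0.50 ± 0.039, edgeR adjusted p = 9.46e-12).

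Of 16 genes of nutrient sensing at the lysosome, 8 rose and 6 fell in sphere against monolayer, or 14 and 1 under scaling to total counts. Rragd, a GTPase that recruits mTORC1 and is a known TFEB target, was at 22.0, 21.4 and 22.4 CPM in primary libraries, 34.1, 33.0 and 34.9 CPM in monolayers and 251, 256 and 250.4 CPM in spheres. Its log2 change in sphere against monolayer was 2.89 ± 0.038 (SE, edgeR adjusted p = 4.35e-29). Lamtor2 fell in the same comparison (-0.57 ± 0.047, edgeR adjusted p = 2.85e-11). Of 15 autophagy genes, 10 rose and 4 fell in that comparison, or 12 and 2 under scaling to total counts. Sqstm1, a cargo receptor, rose by 1.07 ± 0.032 (edgeR adjusted p = 4.11e-21). Gabarap (-0.50 ± 0.03, edgeR adjusted p = 2e-14) and Atg9a (-0.59 ± 0.041, edgeR adjusted p = 8.12e-13) fell. Of 19 other lysosomal membrane proteins, 12 rose and 3 fell, or 15 and 2 under scaling to total counts. Those that rose included Abca2, a lipid transporter, at 2.1 ± 0.046 (adjusted p = 3.90e-24), and Ostm1, a partner of the chloride transporter Clcn7, at 1.30 ± 0.039 (adjusted p = 4.22e-21). Sidt2 was among those that fell (-0.60 ± 0.033, edgeR adjusted p = 4.79e-15). Of 10 sorting genes, 4 rose and 2 fell, or 9 and 1 under scaling to total counts, and of 3 cathepsin inhibitors, 1 rose and 2 fell, or 2 and 1.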

How the data were processed

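Total RNA of 9 libraries was sequenced. Per the submitters' processing notes, fastp 0.20.0, HISAT2 2.1.0, featureCounts 1.6.0 and build GRCm38 were used; the sources used here give neither the annotation release nor the strand setting. The authors deposited raw counts per gene. Entry lengths equal the whole gene span in all 53245 entries with a single interval, so reads in introns count too, and 45.2% of entries overlap another.

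Counts were analysed in R 4.3.3 with edgeR 4.0.16: filterByExpr with a minimum count of 10, TMM scaling, 1 robust quasi-likelihood fit of group means over 9 libraries, and glmTreat against a 2-fold change. SE is the log2 change over the square root of F. The biological coefficient of variation was 4.03%. The calls were tested on simulated data for all 15675 genes, 8 draws per comparison, with pass criteria set after an earlier version had missed low-count genes and exceeded its limit of false calls in 1 comparison. False calls averaged 5.02% of calls in sphere against monolayer, 5.13% in sphere against primary and 4.22% in monolayer against primary. In the same order, 2-fold changes were recovered for 100%, 100% and 100% of genes with at least 50 expected counts, but for 54.3%, 52.8% and 54% below that; 1.2-fold rises for 59.2%, 57.2% and 57.5%; and 0.8-fold falls for 66.2%, 63.5% and 67%. The simulation changed few genes, as many up as down, and gave all genes the same relative spread. In the data most genes were called, so the simulation cannot show the share of false calls there. It does not test the choice of scaling either. Intervals of count ratios are exact conditional binomial intervals. Alternatives were relative log expression and total-count scaling, no filter, DESeq2 1.42.0, fits of only the groups compared, non-overlapping genes, a replicate block and leaving out each library.

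Members and lists were chosen with earlier results of these data known. Values in every library are given for the 3 factors, the 6 largest rises and falls per comparison, the paralog pairs, Gpnmb and Ctsk. Ctsa, Lgmn and Rragd also have library values, outside these rules. The related genes named are among the 4 of their list with the smallest adjusted p in sphere against monolayer. Exceptions are Tm9sf4 and Atp6v1f, which are among the 4 in monolayer against primary. Same-numbered libraries did not deviate together (correlations of -0.01 to 0.026 over 9 pairs), so numbers were not used as pairs.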

Additional observations from a re-analysis of the deposited data

How the results depend on the processing

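Of 144 log2 changes of the lysosomal genes, 139 kept direction and call under relative log expression scaling, 139 with DESeq2, 143 with no filter and 142 in fits of only the 2 groups compared. With the replicate block all 144 did, with 32 rises in sphere against monolayer, though the numbers do not pair the libraries. Under scaling to total counts 124 did and 14 reversed. Reversed values in sphere against monolayer were 0.205 for Ctsk, 0.196 for Glb1, 0.142 for Gaa, 0.022 for Gm2a, 0.242 for Scarb2, 0.255 for Lamp1, 0.259 for Lamp2, 0.087 for Npc2, 0.041 for Atp6v0a1, 0.286 for Atp6v0a2, 0.113 for Atp6v0d1 and 0.132 for the inhibitor Cstb. In monolayer against primary they were -0.213 for Gm2a, -0.204 for Scarb2, -0.022 for Atp6ap2, -0.109 for Tm9sf4 and -0.094 for Atp6v1f. That scaling also gave 2 falls and 1 fall beyond 2-fold in sphere against monolayer, 5 falls in monolayer against primary, and 3042 rises and 8856 falls among all genes there. Falls in monolayer against primary numbered 1 under relative log expression scaling and 1 with DESeq2. The cause was not tested.

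With only genes that overlap no other, 28 lysosomal genes were tested, so counts fell by construction. Among all genes 3245 rose and 2925 fell in sphere against monolayer, 3048 and 3221 in sphere against primary, and 2695 and 2944 in monolayer against primary. Lysosomal rises numbered 18, 25 and 27, with 12 beyond 2-fold in sphere against primary, and 0 falls and 0 falls beyond 2-fold in monolayer against primary. Leaving out 1 library gave 31 to 32 rises and 12 to 13 falls in sphere against monolayer, 44 rises and 2 to 3 falls in sphere against primary, and 43 to 44 rises and 2 to 3 falls in monolayer against primary. Calls were lost for Tfe3 in monolayer against primary without primary replicate 1, 2 or 3 or monolayer replicate 1 or 2, for Scarb2 there without primary replicate 2 or 3, for Mcoln1 in sphere against monolayer without monolayer replicate 3 or sphere replicate 2, and for Ctsh in sphere against primary without sphere replicate 2. Calls were gained in sphere against monolayer for Scarb2 without monolayer replicate 1 and for Lamp2 without monolayer replicate 3. Depth limits Ctss in monolayers and Atp6v0d2 in primary cells.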
